A study of Mus musculus with 6 samples.

Results

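The BCL2 family genes were described in group 2 innate lymphoid cells (ILC2s) of the mouse lung, for 10 members fixed by name among 18122 genes of the deposited table. The pro-survival members were Bcl2, Bcl2l1, Mcl1, Bcl2a1b and Bcl2a1d, and the pro-death members were Bax, Bak1, Bid, Bbc3 and Pmaip1. All 10 passed the filter on low counts, as did 13691 genes of the table. ILC2s are lymphocytes without antigen receptors that release type 2 cytokines. They had been sorted from lung and cultured before RNA extraction, and the libraries were made with a PCR-based low-input cDNA kit. The series holds 3 libraries from mice labelled C.129S4-Icostm1Shr/J (ICOS KO), in which Icos, encoding a co-stimulatory receptor of lymphocytes, has been targeted, and 3 from wild-type mice labelled BALB/C BYJ (WT). In mouse nomenclature the name C.129S4 marks a BALB/c line that carries DNA of a 129 strain around a selected locus. The series' own design text speaks of duplicates, whereas 3 libraries per genotype are given. Neither culture conditions nor time in culture are in the labels used here, and the allele is carried in every cell of the mouse. Strain DNA and the loss of Icos therefore go together and cannot be told apart. The labels do not say which mice or cultures stand behind the libraries of 1 genotype, so p-values measure only the spread between libraries, which may be technical.

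BCL2 family proteins control whether the outer membrane of mitochondria is opened, the step that releases cytochrome c and starts the caspase cascade of apoptosis. BAX and BAK form the openings, pro-survival members such as BCL2, BCL-XL, MCL1 and A1 hold them and their activators in check, and the BH3-only proteins BID, PUMA and NOXA release or directly trigger them. Lymphocytes depend on cytokines such as interleukin-7 and interleukin-2 to keep this balance on the side of survival. Many steps of it act on protein, through binding, cleavage or turnover, which RNA counts do not show.

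Library totals ranged from 13738062 to 15543034 estimated counts in ICOS KO and from 14976130 to 18736474 in WT, and the detection floor of 3 counts was worth 0.16 to 0.218 CPM. CPM denotes a count divided by the effective size of its library. Such floors cover counting error only. Icos stood at 140, 170 and 161 CPM in ICOS KO and at 434, 462 and 502 CPM in WT (log2 fold change -1.57 ± 0.10, SE; edgeR adjusted p = 1.27e-05). Gene counts do not show which exons of the targeted gene the remaining reads cover. ICOS KO replicate 2 stood farthest from the other libraries on the first principal component. Mitochondrial genes took 0.329% to 0.616% of counts in ICOS KO and 0.263% to 0.422% in WT, and the nuclear RNA Malat1 stood at 808 to 1609 CPM by library totals in ICOS KO and at 629 to 1014 in WT. All 11 ILC2 markers were detected, with a summed level of 10317 to 11102 CPM in ICOS KO and 9692 to 10808 CPM in WT. Singly, 4 of them were higher and 1 lower in ICOS KO at an edgeR adjusted p under 0.05. Of all tested genes 1.29% were higher and 2.01% lower at that level.

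The members Bcl2a1b and Bcl2a1d, are closely related mouse copies of the gene of A1, and a further copy, Bcl2a1a, was also in the table. Their annotated coding sequences are each 516 bases long. Bcl2a1b and Bcl2a1d differ at 6 positions (98.8% identity), Bcl2a1b and Bcl2a1a at 11, and Bcl2a1d and Bcl2a1a at 7. The first 120 coding bases are shown because they hold 3 of the 6 coding differences between Bcl2a1b and Bcl2a1d and show how few bases set the copies apart. Capitals mark the 7 positions in this stretch at which the copies are not all alike. They lie, on GRCm38, at chr9:89199360-89199479 (plus strand) for Bcl2a1b, chr9:88731600-88731719 (minus strand) for Bcl2a1d and chr9:88957051-88957170 (plus strand) for Bcl2a1a.
Bcl2a1b: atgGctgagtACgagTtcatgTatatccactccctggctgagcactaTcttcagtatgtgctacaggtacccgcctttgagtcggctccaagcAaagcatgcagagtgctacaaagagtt
Bcl2a1d: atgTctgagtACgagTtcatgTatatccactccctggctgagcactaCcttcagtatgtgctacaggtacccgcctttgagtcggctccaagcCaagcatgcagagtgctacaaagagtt
Bcl2a1a: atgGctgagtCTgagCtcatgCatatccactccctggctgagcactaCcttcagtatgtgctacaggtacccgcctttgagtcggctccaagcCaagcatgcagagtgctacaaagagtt
Counted from the first base of the start codon, the changes from Bcl2a1b to Bcl2a1d are G4T, T48C, A94C, G312A, C381G and T490A. Of all 100-base windows of its whole transcript, 31.1% of those of Bcl2a1b, 54.7% of Bcl2a1d and 43.5% of Bcl2a1a occur unchanged in another of these copies. The deposited values of these genes were not whole numbers, and how the counting divided shared reads is not given in the sources used here. Values of the single copies are therefore uncertain, and their sum is given beside them.

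The comparison of ICOS KO with WT ILC2s showed no member past the test. Of 13691 genes, 3.29% were called at an edgeR adjusted p of 0.05 (1.29% were higher in ICOS KO, 2.01% lower). The 10 members included 0 called genes and 2 (Bcl2a1d and Bax) at an unadjusted p under 0.05, a level that 19.9% of all tested genes reached. The limma voom fit also called 0 members, against 3.09% of all genes. DESeq2 and voom with quality weights called 1, Bcl2a1d, where they called 6.79% and 6.62% of all genes, and so did edgeR without WT replicate 3, where it called 2.58%. With the replicate number as a block edgeR called 0 members and 5.73% of all genes. The groups did not overlap for 2 members, Bcl2a1d and Bak1, both higher in ICOS KO, against 24.4% of all tested genes (11.9% higher in ICOS KO). Fold changes were positive for 7 members and negative for 3, where 49.6% of all tested genes had a positive one. The median log2 fold change was 0.003 over the 5 pro-survival members and 0.19 over the 5 pro-death members, against -0.0035 over all tested genes. For 8 of the 10 members the 95% interval of the fold change lay within 2-fold in either direction, as it did for 67.1% of all tested genes.

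**Figure D1:**
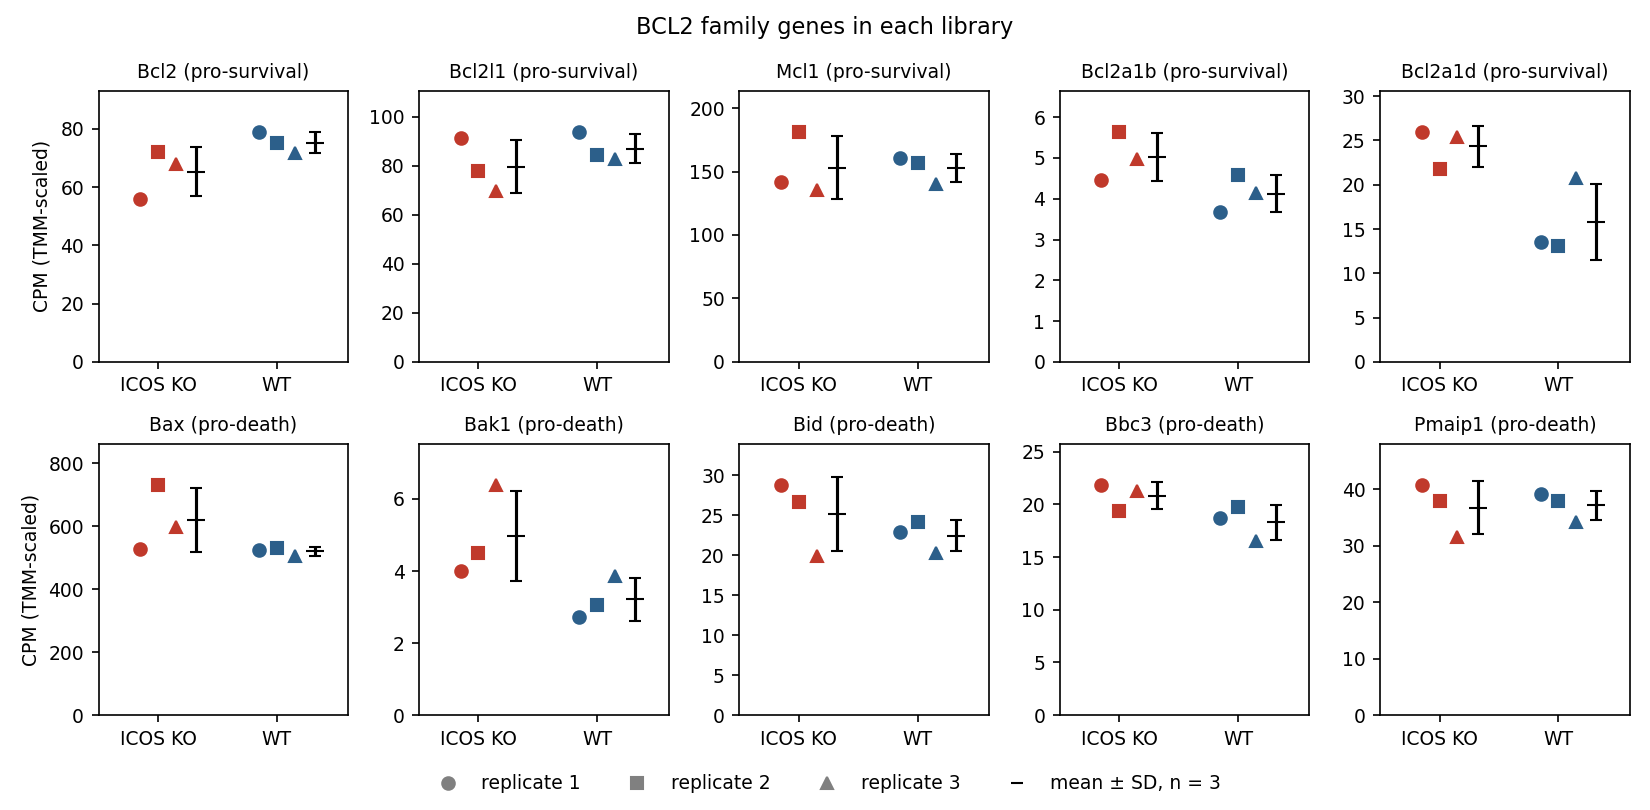
CPM of each BCL2 family gene in the 3 ICOS KO libraries (red) and the 3 WT libraries (blue), with the mean and SD beside them; each panel has its own axis from 0. For Bcl2a1d and Bak1 all 3 ICOS KO libraries sit above all 3 WT libraries, and for the other 8 genes the groups overlap.

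Among the pro-survival genes, Bcl2, the founding member and a survival factor of resting lymphocytes (chromosome 1, 106538178 to 106714274, GRCm38, minus strand), stood at 56.0, 72.0 and 67.9 CPM in ICOS KO and at 78.9, 75.2 and 71.7 CPM in WT. ICOS KO replicate 1 was the lowest, and replicate 2 reached just above the lowest WT library. The means were 65.3 ± 8.32 CPM in ICOS KO and 75.3 ± 3.63 CPM in WT (SD, n = 3 each). The log2 fold change was -0.21 with a 95% interval of -0.47 to 0.06 (edgeR adjusted p = 0.355). Bcl2 lies 45.5 Mb from Icos on the same chromosome. Its exons share 558 bases with D630008O14Rik, a gene on the opposite strand with at most 0.742 CPM in any library, and no strand setting is given for the counts.

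Bcl2l1, which encodes BCL-XL (chromosome 2, 152780668 to 152831728), stood at 91.2, 77.9 and 69.9 CPM in ICOS KO and at 93.9, 84.3 and 82.9 CPM in WT. The WT libraries held the top value, while ICOS KO replicate 1 lay between WT replicates 1 and 2. The log2 fold change was -0.13 (95% interval -0.39 to 0.14; edgeR adjusted p = 0.586). Gene counts do not separate the long, protective form of Bcl2l1 from its short, pro-death splice form. Mcl1, which encodes a short-lived survival protein that many lymphocytes need (chromosome 3, 95658788 to 95663176), stood at 142, 181 and 136 CPM in ICOS KO and at 161, 157 and 140 CPM in WT. Both the highest and the lowest values were ICOS KO libraries. The means were 153 ± 24.7 CPM in ICOS KO and 153 ± 11.2 CPM in WT (SD, n = 3 each). Its log2 fold change was 0.003 with a 95% interval of -0.27 to 0.27 (edgeR adjusted p = 0.993), and its sign differed between scalings.

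Bcl2a1d (chromosome 9, 88723285 to 88731914) had the smallest p of the members. It stood at 26.0, 21.7 and 25.4 CPM in ICOS KO and at 13.6, 13.1 and 20.8 CPM in WT. The gap between the groups was narrow, since WT replicate 3 came close to ICOS KO replicate 2. The means were 24.4 ± 2.30 CPM in ICOS KO and 15.8 ± 4.31 CPM in WT (SD, n = 3 each), a 1.54-fold difference (log2 0.63, 95% interval 0.20 to 1.05; edgeR adjusted p = 0.112). The adjusted p was 0.0313 without WT replicate 3 (log2 0.87), 0.0439 with DESeq2 and 0.0273 with weighted voom, and between 0.0551 and 0.416 in the other 14 alternatives that held the gene. WT replicate 3 also had the highest mitochondrial share and Malat1 level of the WT libraries. In ICOS KO the order was the reverse, since replicate 2 had the highest share (0.616%) and Malat1 level (1609 CPM) and the lowest Bcl2a1d. The part of either in the value was not tested. After removal, per library, of the dependence on the length and GC of the longest annotated transcript, the log2 fold change was 0.29.

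Bcl2a1b (chromosome 9, 89199209 to 89207827) stood at 4.46, 5.64 and 4.97 CPM in ICOS KO and at 3.67, 4.57 and 4.13 CPM in WT. Only ICOS KO replicate 1 fell among the WT values. The log2 fold change was 0.28 (95% interval -0.33 to 0.89; edgeR adjusted p = 0.603), with 63.2 to 87.3 estimated counts behind each value. Its exons share 401 bases with Gm29094 on the same strand, which had at most 0.631 CPM in any library. The log2 fold change of Bcl2a1b was -0.13 once the length and GC trend was removed. Bcl2a1a stood at 1.10, 2.56 and 3.34 CPM in ICOS KO and at 1.68, 1.79 and 4.33 CPM in WT, where groups overlapped. The 3 copies summed stood at 31.5, 29.9 and 33.7 CPM in ICOS KO and at 18.9, 19.5 and 29.2 CPM in WT. The sum did not overlap between groups either, by a margin of less than 1 CPM, and its log2 fold change of 0.50 ± 0.18 (SE) was not past the threshold (edgeR adjusted p = 0.161). Without WT replicate 3 its adjusted p was 0.0374.

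A1 is made by other lymphocytes too, and by mast cells, neutrophils and macrophages. The 13 listed mast cell and basophil markers summed to 60.9 to 72.3 CPM in ICOS KO and to 356 to 410 CPM in WT, with 5 of them under 3 CPM in every library. The 8 neutrophil markers summed to 4.45 to 9.24 CPM in ICOS KO and to 6.10 to 42.3 CPM in WT, with 6 under 3 CPM throughout. The 9 macrophage and dendritic cell markers summed to 72.1 to 111 CPM in ICOS KO and to 119 to 173 CPM in WT, with 3 under 3 CPM throughout. In bulk RNA, fewer cells of a type and less RNA per cell cannot be told apart. The other lists, of which the B, T and NK cell lists are for lymphocytes, also held reads. B cell markers summed to 29.7 to 45.8 CPM in ICOS KO and 25.2 to 26.3 CPM in WT, T cell markers to 367 to 469 and 245 to 300 CPM, NK cell markers to 3.61 to 7.42 and 4.39 to 5.52 CPM, and lung structural cell markers to 143 to 255 and 140 to 228 CPM, in the same order. The T and B cell sums lay higher in every ICOS KO library than in any WT library, and the mast cell and macrophage sums lower. Of single tested genes 24.4% did not overlap between groups. Under 3 CPM in every library were 2 of 4 B cell, 4 of 8 T cell, 3 of 4 NK cell and 0 of 4 structural markers. The part of any of these cell types in the values of the members was not tested.

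Among the pro-death genes, Bax, an effector that opens the outer membrane (chromosome 7, 45461697 to 45466898), stood at 529, 730 and 597 CPM in ICOS KO and at 524, 532 and 505 CPM in WT. The WT libraries lay close together, ICOS KO replicate 1 fell among them and replicate 2 was far above. The means were 619 ± 102 CPM in ICOS KO and 520 ± 13.8 CPM in WT (SD, n = 3 each). The log2 fold change was 0.25 with a 95% interval of 0.004 to 0.50 (edgeR adjusted p = 0.245). The exons of Bax share 192 bases with Gm45808 on the same strand. Its log2 fold change was 0.12 without ICOS KO replicate 2 and -0.03 once the length and GC trend was removed. The ICOS KO libraries ranked on Bax as they did on mitochondrial share (0.329%, 0.616% and 0.492%). The WT libraries did not, since WT replicate 3 had their highest share (0.422%) and their lowest Bax. The part of that share in the value was not tested.

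Bak1, which encodes the other effector, BAK (chromosome 17, 27019810 to 27029009), stood at 4.0, 4.51 and 6.38 CPM in ICOS KO and at 2.73, 3.05 and 3.87 CPM in WT. All ICOS KO libraries were above all WT libraries, though ICOS KO replicate 1 and WT replicate 3 nearly met. With 52.4 to 85.9 estimated counts per library the interval was the widest of the members, 0.95-fold to 2.52-fold around a 1.55-fold difference (log2 0.63; edgeR adjusted p = 0.297).

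The BH3-only genes overlapped between groups throughout. Bid, whose protein is cut by caspase-8 and carries the death receptor signal to mitochondria (chromosome 6, 120891930 to 120916853), stood at 28.7, 26.6 and 19.9 CPM in ICOS KO and at 22.9, 24.1 and 20.3 CPM in WT. ICOS KO replicate 3 was the lowest of all libraries and replicate 1 the highest. Its log2 fold change was 0.16 (95% interval -0.20 to 0.52; edgeR adjusted p = 0.62), and its exons share 628 bases with Bcl2l13 on the opposite strand, which stood at 33.1 to 57.3 CPM. Bbc3, which encodes PUMA, a p53 target (chromosome 7, 16308393 to 16318205), stood at 21.8, 19.4 and 21.3 CPM in ICOS KO and at 18.7, 19.8 and 16.5 CPM in WT. WT replicate 2 exceeded ICOS KO replicate 2, and the log2 fold change was 0.19 (95% interval -0.14 to 0.51; edgeR adjusted p = 0.512). Pmaip1, which encodes NOXA, the partner that antagonises MCL1 (chromosome 18, 66458533 to 66465565), stood at 40.8, 37.9 and 31.5 CPM in ICOS KO and at 39.3, 38.0 and 34.2 CPM in WT. In both genotypes replicate 3 was the lowest and the ranges nearly coincided. Its log2 fold change was -0.02 (95% interval -0.32 to 0.28; edgeR adjusted p = 0.959).

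**Figure D2:**
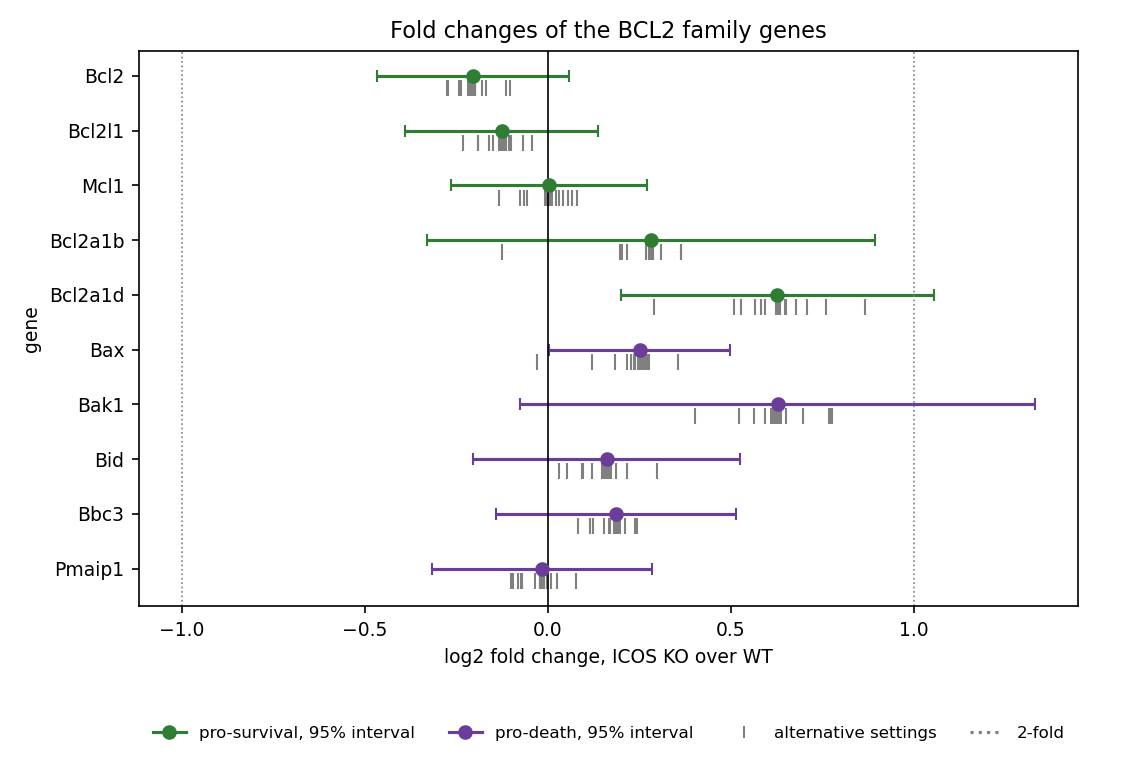
Log2 fold change of ICOS KO over WT for each gene (points) with its 95% interval (bars), pro-survival genes in green and pro-death genes in purple; grey ticks are the values under alternative settings and dotted lines mark 2-fold. The intervals of Bcl2a1d and Bax lie above 0 and those of Bcl2a1d and Bak1 reach past 2-fold.

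The narrower 95% intervals were compared as folds. For Mcl1 they ran from 0.832-fold to 1.21-fold, for Bcl2 from 0.723-fold to 1.04-fold, for Bcl2l1 from 0.764-fold to 1.10-fold and for Pmaip1 from 0.803-fold to 1.22-fold. For Bax, whose interval was the narrowest on the log2 scale, it ran from 1.003-fold to 1.41-fold, just above no difference. Differences of 2-fold lay outside these intervals. The replicate spread (SD) of the members was 6.15% to 25.2% of the mean in ICOS KO, with Bbc3 the tightest and Bak1 the widest, and 2.66% to 27.2% in WT, with Bax the tightest and Bcl2a1d the widest.

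Levels were compared between genes after division of the CPM by the annotated exon length in kb, which counts exons of all isoforms and is approximate. Bax led with a mean level of 361 CPM per kb over the 6 libraries, above 98.9% of 13388 tested genes with a length. Mcl1 followed at 44.7 CPM per kb, then Bcl2a1d at 23.3 and Bcl2l1 at 18.2. Pmaip1 stood at 13.5, Bbc3 at 9.22, Bcl2 at 7.68, Bid at 6.69 and Bcl2a1b at 5.60 CPM per kb. Bak1 was the lowest at 1.70 CPM per kb, 213-fold under Bax and above 28.7% of the tested genes. Neighbours whose ranges over the 6 libraries overlapped were Bcl2a1d and Bcl2l1, Bbc3 and Bcl2, Bcl2 and Bid, and Bid and Bcl2a1b. Of the effectors, the cells thus held far more Bax than Bak1 RNA, and of the A1 copies the level of Bcl2a1d was 4.16-fold that of Bcl2a1b, as far as their reads were divided correctly. Of the pro-survival genes Mcl1 had the highest level in every library.

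**Figure D3:**
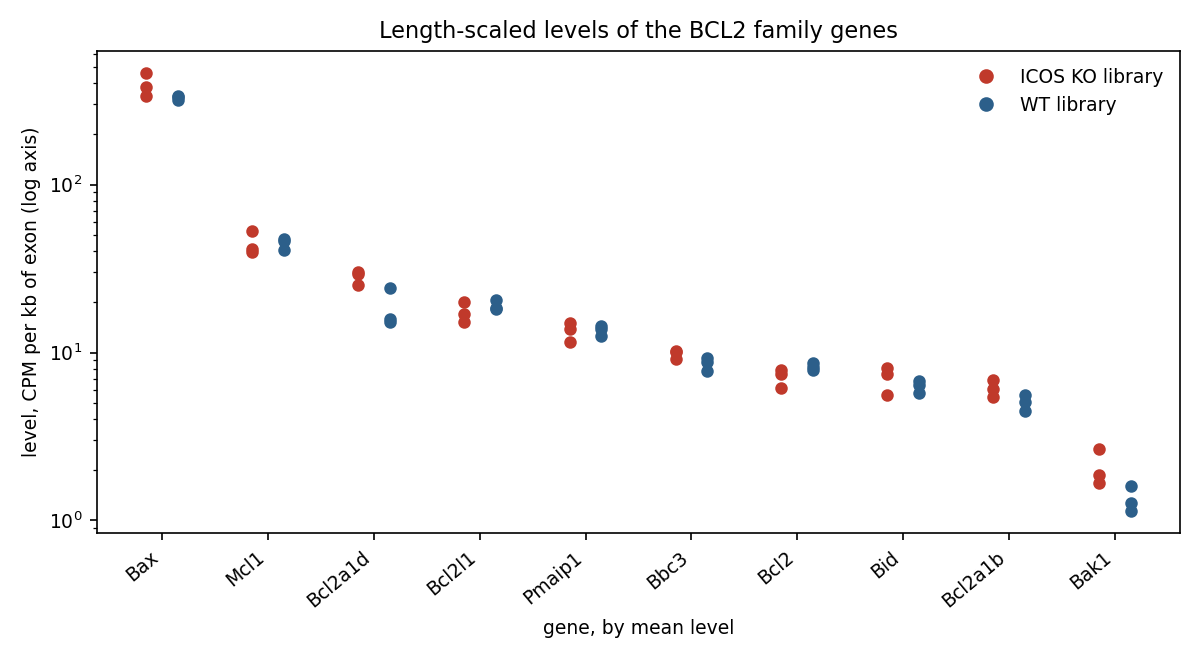
Length-scaled level (CPM per kb of exon, log axis) of each BCL2 family gene in the ICOS KO libraries (red) and the WT libraries (blue), ordered by mean level. Bax stands above all others at 361 CPM per kb and Bak1 below all others at 1.70 CPM per kb, and the points of the genotypes lie close together for most genes.

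The balance of the opposed arms was then described per library, without a test, since the members were chosen with results of these data known. The mean log2 level of the pro-survival genes minus that of the pro-death genes was 0.052, 0.12 and 0.060 in ICOS KO and 0.19, 0.13 and 0.26 in WT. All ICOS KO libraries were below all WT libraries, though ICOS KO replicate 2 (0.116) and WT replicate 2 (0.130) nearly met. Of single tested genes 24.4% did not overlap, and no such share was computed for scores of this kind. The means were 0.076 ± 0.035 in ICOS KO and 0.19 ± 0.065 in WT (SD, n = 3 each), a difference of -0.12. Leaving out both A1 copies, which had positive fold changes, moved the difference to -0.35. With the length and GC trend removed the difference was -0.15, and the groups again did not overlap. The summed level of the pro-survival genes was 103, 110 and 97.8 CPM per kb in ICOS KO and 96.4, 93.3 and 95.9 CPM per kb in WT. That of the pro-death genes was 371, 496 and 409 CPM per kb in ICOS KO and 363, 369 and 348 CPM per kb in WT, of which Bax made up 90.6% to 93.5% in ICOS KO and 91.5% to 92.1% in WT. Both sums were thus higher in every ICOS KO library than in any WT library, by narrow margins (97.8 against 96.4 and 371 against 369 CPM per kb). No share of non-overlap was computed for sums of other genes, and 24.4% of single tested genes did not overlap. Without Bax the pro-death sum overlapped between groups. The pro-survival sum averaged 104 CPM per kb in ICOS KO and 95.2 in WT. Bcl2a1d, whose single-copy value is uncertain, averaged 28.2 and 18.3, a wider gap than that of the whole sum. A pro-survival sum without Bcl2a1d was not computed. The log2 of the summed pro-survival over the summed pro-death level overlapped between groups. It was -1.85, -2.17 and -2.06 in ICOS KO and -1.91, -1.98 and -1.86 in WT. The sums were not recomputed with the length and GC trend removed, under which the log2 fold change of Bax was -0.03.

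Of the 25 log2 ratios of a pro-survival to a pro-death gene, 15 were lower on average in ICOS KO and 5 did not overlap between groups, all lower in ICOS KO, where 23.8% of all pairs of tested genes did not overlap. The share is close to that background. The 5 were Bcl2 over Bax, Bak1 and Bbc3, Bcl2l1 over Bbc3, and Mcl1 over Bax. Bcl2 over Bax, singled out after its values were seen, is given in full. The Bcl2 level was 1.82%, 1.70% and 1.96% of the Bax level in ICOS KO and 2.59%, 2.43% and 2.44% in WT, a difference of -0.45 on the log2 scale. Such a ratio within a library does not depend on the scaling between libraries. The annotated exon length, by which the levels were divided, is 9.16 kb for Bcl2 and 1.58 kb for Bax. The trend was fitted on the length of the longest transcript instead. With the length and GC trend removed the shares were 1.74%, 2.15% and 2.35% in ICOS KO and 2.28%, 2.21% and 2.11% in WT, which overlapped, and the log2 difference was -0.09. Length and GC were removed together, and neither was tested alone. By that measure 2 of the 25 ratios did not overlap, 1 lower and 1 higher in ICOS KO.

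**Figure D4:**
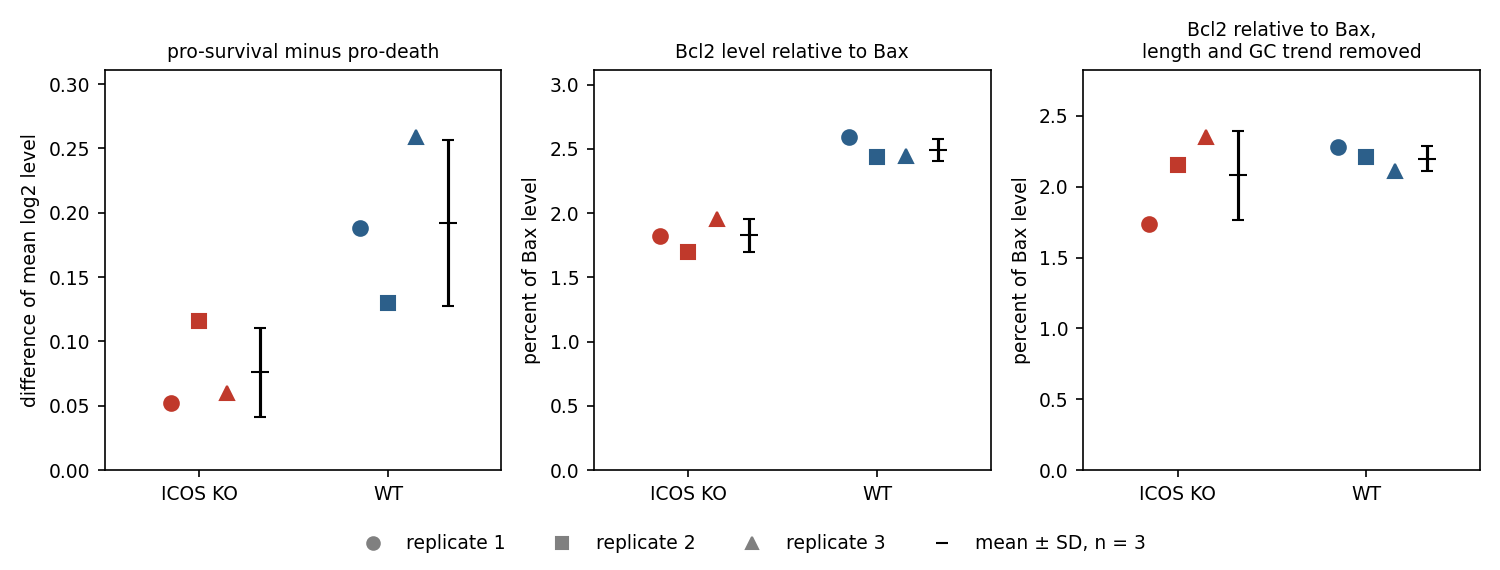
Left, mean log2 level of the pro-survival genes minus that of the pro-death genes; middle, Bcl2 level as a percent of the Bax level; right, the same percent with each library's length and GC trend removed; points are libraries and bars the mean and SD. The groups are apart in the left and middle panels and overlap in the right one.

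Genes around the family were taken from 9 fixed lists, and called genes were found in 1 of them. Of 10 NF-kB genes, whose pathway drives A1 transcription in lymphocytes, 1 rose and 2 fell, where 1.29% of all tested genes rose and 2.01% fell, and their median log2 fold change was -0.23, against -0.0035 over all tested genes. Nfkb2, a subunit of the non-canonical arm, fell to 62.7, 47.5 and 51.9 CPM in ICOS KO, against 103, 87.7 and 76.8 CPM in WT (log2 -0.72 ± 0.14, SE; edgeR adjusted p = 0.0169). Tnfaip3, which encodes the feedback inhibitor A20, fell to 11.9, 8.72 and 11.1 CPM in ICOS KO, against 20.3, 16.0 and 18.4 CPM in WT (log2 -0.78 ± 0.19, SE; edgeR adjusted p = 0.0461). Bcl3, a nuclear partner of NF-kB that despite its name is outside the BCL2 family, rose to 289, 269 and 283 CPM in ICOS KO, against 218, 209 and 205 CPM in WT (log2 0.41 ± 0.09, SE; edgeR adjusted p = 0.0259). In all 3 the groups were apart. The call of Nfkb2 was lost without ICOS KO replicate 2 or 3 or WT replicate 1 or 2 (adjusted p up to 0.102), that of Bcl3 without ICOS KO replicate 3 or any of the WT replicates (up to 0.162), and that of Tnfaip3 without any library but ICOS KO replicate 1 (up to 0.211). With the length and GC trend removed, Bcl3 (0.11) and Tnfaip3 (0.0557) were not called, nor was Bcl3 with library totals alone (0.066), nor Tnfaip3 with upper-quartile scaling (0.0504), voom (0.056) or no filter (0.0549).

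None of the other lists held a called gene in edgeR, and the counts at an unadjusted p under 0.05 follow, a level that 19.9% of all tested genes reached. Of the other pro-survival relatives, 0 of 2 tested reached it, and Bcl2l2, which encodes BCL-W, stood at 1.91 ± 0.50 CPM in ICOS KO and 2.66 ± 0.21 CPM in WT (SD, n = 3 each). Of the other pro-death relatives 1 of 4 did: Bad, a BH3-only gene, stood at 65.1, 82.2 and 78.5 CPM in ICOS KO and at 56.5, 66.6 and 55.8 CPM in WT, where ICOS KO replicate 1 was below WT replicate 2 (edgeR adjusted p = 0.177). Bok, a further effector relative, stood at 13.4 ± 1.51 CPM in ICOS KO and 11.1 ± 1.33 CPM in WT (SD, n = 3 each). All 4 tested pro-death relatives had positive fold changes, where 49.6% of all tested genes had a positive one, and their median was 0.22. With the length and GC trend removed, the log2 fold change was 0.18 for Bad and 0.099 for Bok (0.33 and 0.28 in the main fit). Of 6 atypical relatives 2 reached an unadjusted p under 0.05, Bcl2l15 and the mitophagy receptor gene Bnip3. Bcl2l15 stood at 11 ± 1.5 CPM in ICOS KO and 6.76 ± 2.13 CPM in WT (SD, n = 3 each). Bnip3 stood at 133 ± 10.1 CPM in ICOS KO and 114 ± 3.28 CPM in WT (SD, n = 3 each). With the length and GC trend removed, the log2 fold change was 0.56 for Bcl2l15 and 0.013 for Bnip3 (0.70 and 0.22 in the main fit).

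Of 14 apoptosome and caspase genes 6 reached an unadjusted p under 0.05 (19.9% of all tested genes), with 7 positive and 7 negative fold changes. Cycs, which encodes cytochrome c, stood at 658, 898 and 789 CPM in ICOS KO and at 488, 572 and 660 CPM in WT, and the groups just met (log2 0.45; edgeR adjusted p = 0.0964). The fits that called it included DESeq2 (adjusted p = 0.0233), weighted voom (0.0276) and edgeR without ICOS KO replicate 1 (0.0238). Aifm1, which encodes apoptosis-inducing factor, stood at 70.1, 49.0 and 63.8 CPM in ICOS KO and at 81.1, 89.1 and 74.5 CPM in WT, where all ICOS KO libraries were lower (edgeR adjusted p = 0.139). Of 12 death receptor genes 3 reached that level, among them the adaptor gene Tradd (105 ± 15.8 CPM in ICOS KO and 83.6 ± 3.52 CPM in WT) and Tnfsf10, which encodes the death ligand TRAIL (15.2 ± 0.98 CPM in ICOS KO and 20.2 ± 1.84 CPM in WT; SD, n = 3 each). The adjusted p of Tradd was 0.0309 without ICOS KO replicate 1.

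Of 12 tested p53 genes, 11 had negative fold changes and 1 a positive one (49.6% of all tested genes were positive), 6 had an unadjusted p under 0.05 (19.9% of all tested genes), the median log2 fold change was -0.27 and 0 were called. Trp53, which encodes p53 itself, stood at 172, 162 and 193 CPM in ICOS KO and at 216, 215 and 203 CPM in WT, where all ICOS KO libraries were lower (log2 -0.27; edgeR adjusted p = 0.164). Sesn2, a stress-induced p53 target, stood at 55.9 ± 7.16 CPM in ICOS KO and 74.3 ± 10.8 CPM in WT (SD, n = 3 each). The p53 targets among the members, Bbc3, Pmaip1 and Bax, had log2 fold changes of 0.19, -0.02 and 0.25. Of 6 genes of MCL1 and NOXA turnover 3 reached an unadjusted p under 0.05, with 3 positive and 3 negative fold changes over the list. Huwe1, a ubiquitin ligase of MCL1, stood at 74.4, 58.3 and 67.0 CPM in ICOS KO and at 88.9, 89.6 and 82.0 CPM in WT (edgeR adjusted p = 0.105). Usp9x, a deubiquitinase of MCL1, stood at 33.6, 28.8 and 28.4 CPM in ICOS KO and at 37.8, 40.2 and 39.7 CPM in WT (edgeR adjusted p = 0.146). Both were lower in every ICOS KO library, and they act on MCL1 in opposite directions. Weighted voom (0.0464) and the fit without ICOS KO replicate 1 (0.0388) called Huwe1. Without WT replicate 1 the edgeR adjusted p of Huwe1 was 0.333. With the length and GC trend removed its log2 fold change was -0.23 (edgeR adjusted p = 0.32), against -0.38 in the main fit. Of 8 genes of mitochondrial membrane and chaperone partners 3 reached that level, led by Bag3, a co-chaperone, at 13.4, 11.1 and 7.94 CPM in ICOS KO and 17.8, 17.7 and 19.8 CPM in WT (edgeR adjusted p = 0.0689), a gene that DESeq2 (0.0163), weighted voom (0.0255) and the fit without ICOS KO replicate 1 (0.0247) called. Vdac1, a channel of the outer membrane, stood at 79.3 ± 19.4 CPM in ICOS KO and 106 ± 7.55 CPM in WT (SD, n = 3 each), with an adjusted p of 0.0331 without ICOS KO replicate 1.

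**Figure D5:**
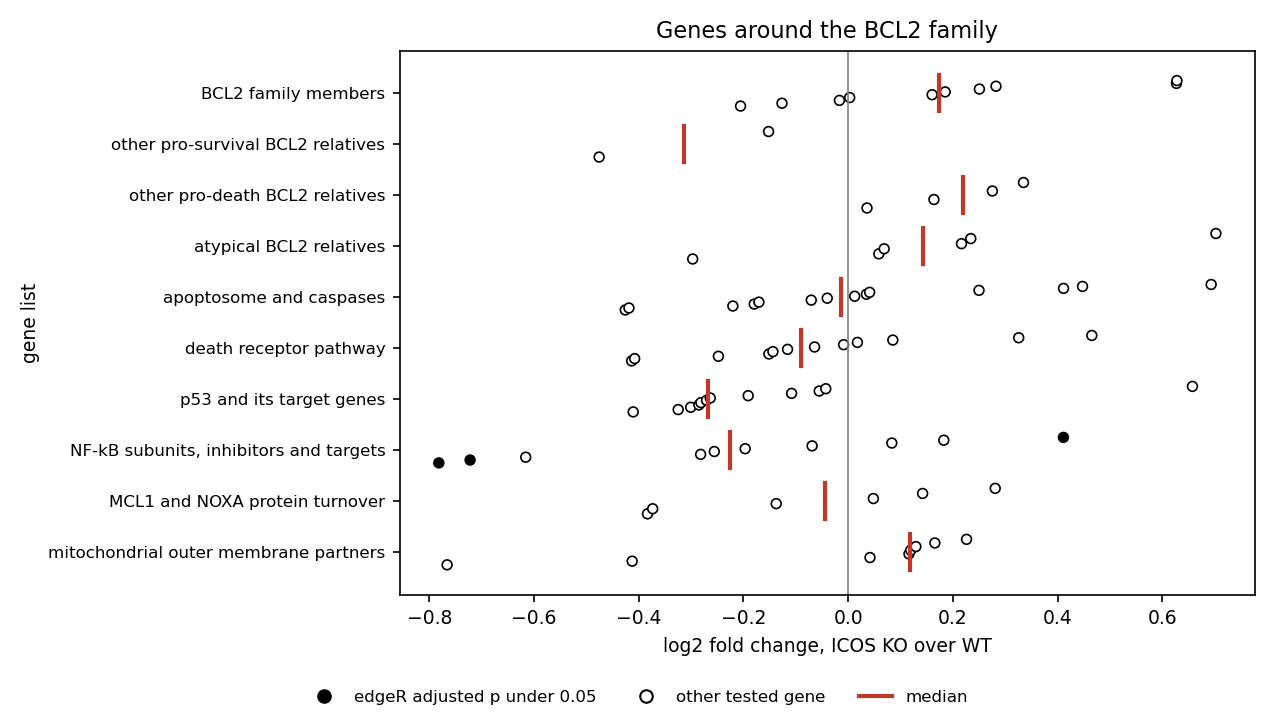
Log2 fold change of ICOS KO over WT for every tested gene of the BCL2 family and of 9 related lists, one line per list, with the median in red and genes past an edgeR adjusted p of 0.05 filled. Filled points appear in the NF-kB list alone, and most p53 genes lie left of 0, with a median of -0.27.

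By Pearson correlation of log2 CPM over the 6 libraries, among 9817 genes with a mean of at least 5 CPM, the genes most like Bcl2a1d were Lamtor1 (r = 0.99), Rps2-ps5 (r = 0.987) and Tmem33 (r = 0.985), and those most like Bcl2 were St3gal3 (r = 0.981), Bckdhb (r = 0.979) and Mgmt (r = 0.972). With 6 points that share genotype and library quality, such values describe the ranking only. None of these 6 genes was called by edgeR (adjusted p from 0.25 to 0.482).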

How the data were processed

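Estimated counts for every gene stand in a single table that the authors deposited, in which each library is 1 line. The build mm10 and the tools STAR 2.7.8, Partek 10.0 and DESeq2 are named, without roles, per the submitters' processing notes; no source used here names the annotation, the counting method or the strand setting. Libraries were matched to groups by library name. Of the values 34.5% differed from a whole number by over 0.001; all were rounded before testing. Genes kept by filterByExpr (13691) were scaled with TMM. ICOS KO was then compared with WT in R 4.3.3 by edgeR 4.0.16, using its quasi-likelihood test and no covariate, and p was adjusted after Benjamini and Hochberg over all tested genes (threshold 0.05). SE and 95% intervals are those the F statistic implies. CPM are TMM-scaled. The fit was tested on simulated counts. Pearson r of log2 CPM was 0.948 to 0.979 over all pairs of libraries, and the closest pair, WT replicates 1 and 2, differed by a chi-square of 8.85 per degree of freedom. Positions, exon lengths and sequences come from GENCODE M21 (GRCm38), matched by symbol for 17691 genes. PCR copies cannot be recognised among the reads, so counting error understates the true error.

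The members and lists were chosen with earlier results of these data known. The genes named were all 10 members, Icos, the called genes and 2 smallest p of each other list, and 3 genes most like Bcl2 and the member with the smallest p. Bcl2a1c, Bcl2l10 and Hrk were not analysed here, and Bmf, Fasl, Eda2r and Trim17 were below the filter. Alternatives were other scalings (DESeq2 median-of-ratios, upper-quartile, library totals), DESeq2 1.42.0, limma 3.58.1 voom with and without quality weights, no filter, a replicate block, each library left out, a minimum of 5 CPM in 3 libraries, mitochondrial and haemoglobin genes left out, and summed Bcl2a1 copies. A further alternative removed, per library, the trend with the length and GC of each gene's longest annotated transcript (97.8% of tested genes had both values). The ratios of single genes, their alternatives, and the balance with the length and GC trend removed were added after the data were seen.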

Additional observations from a re-analysis of the deposited data

How the results depend on the processing

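The count of members called was 0 in the main fit and 1 (Bcl2a1d) with DESeq2, with weighted voom and without WT replicate 3, and ranged from 0 to 1 over the fits that left out a library. The count of called genes was 451; it was 929 with DESeq2, 906 with weighted voom and 193 to 1090 over the fits that left out a library. Genes higher in ICOS KO made up 39% of calls, and 28.2% with library totals alone. With the replicate number as a block 784 genes and 0 members were called, and Cycs was called (adjusted p = 0.0146). Same-numbered libraries shared little (correlation of deviations 0.064 to 0.087), so the numbers were not taken as pairs, although each library correlated best with its own number. The summed Bcl2a1 copies had a log2 fold change of 0.63 with weighted voom (adjusted p = 0.0404) and 0.38 to 0.72 with a library left out. No length and GC value is given for them, since the sum has no annotated length or GC by which to remove the trend. The difference between pro-survival and pro-death levels was -0.35 without both A1 copies and -0.15 with the length and GC trend removed. It was -0.15 to -0.083 with a library left out. Signs turned for Mcl1 (0.003 in the main fit; -0.064 with library totals alone, -0.0089 with voom, -0.077 with weighted voom, -0.0025 with no filter, -0.0056 with the block, -0.13 to 0.079 with a library left out), Pmaip1 (0.0090 with upper-quartile scaling, -0.096 to 0.078 with a library left out) and Bcl2a1a (0.19 with weighted voom, -0.51 to 0.42 with a library left out). With the length and GC trend removed they turned for Bax (-0.030) and Bcl2a1b (-0.13). The cause was not tested. The 25 ratios held 5 to 12 that did not overlap when a library was left out, where fewer libraries separate more easily. The 5 CPM filter removed Bcl2a1b and Bak1. With 3 libraries per genotype and under 90 estimated counts per library, Bak1 and Bcl2a1b were the least precise members.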
